A study of Mus musculus with 6 samples.

Results

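The 6 genes described here are the metallothioneins Mt1 and Mt2, the glucocorticoid-induced genes Sgk1, Fkbp5 and Tsc22d3, and Nr3c1, which encodes the glucocorticoid receptor. They were measured in whole adrenal glands of mice from the hypertensive strain BPH and the hypotensive strain BPL, 3 arrays per strain, on the Affymetrix MG_U74Av2 array. Every probe set, a group of short oligonucleotides that queries 1 transcript, was taken whose annotation names a single gene that is 1 of the 6. This gave 6 of the 12488 probe sets on the array, 1 per gene, and 6 of the 8252 genes named there. The groups differ by strain only as far as the labels say, which give no sex, age, treatment or pooling, and do not say whether the 3 arrays of a strain came from separate animals. The p-values therefore measure only the spread between these arrays. The comparison asks whether the transcripts that answer to steroid hormone and to metal stand at another level in the gland of the hypertensive strain.

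Metallothioneins are small cysteine-rich proteins that bind zinc and copper and buffer heavy metals and oxidants. Their genes are switched on by zinc through the metal-sensing factor MTF-1, which binds short metal response elements near the gene start, and also by glucocorticoids and by inflammatory cytokines. The glucocorticoid receptor is a nuclear receptor held in the cytoplasm by chaperones until it binds hormone, after which it moves to the nucleus and binds glucocorticoid response elements. The adrenal cortex is the gland that makes these hormones, so its own cells are exposed to high local levels.

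None of the 4 genes bright enough to test, Mt1, Mt2, Sgk1 and Fkbp5, differed past the threshold between BPH and BPL. Their 95% intervals lay between a 0.684-fold and a 1.48-fold BPH level relative to BPL. The other two, Tsc22d3 and Nr3c1, were too dim for the test and are given by their values. Of the 7293 tested probe sets of the array, 184 passed the threshold of a Benjamini-Hochberg adjusted p under 0.05 in limma, which is 2.52% called. Of the 4 tested members 0 passed it, with 0 at an unadjusted p under 0.05, a level that 19.3% of tested probe sets reached. With 4 members and that background, a count of 0 is no result about the group, and the intervals carry the information.

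The reference promoters of Mt1, Mt2 and Sgk1 are shown because each holds a match to an element through which metals or glucocorticoids are known to act. They are RefSeq windows of build GRCm38.p6, the reference strain and not BPH or BPL, and cover the 250 bases before an annotated start. Capitals mark matches, on either strand, to the metal response element core (TGCACNC or TGCGCNC), to a full palindromic glucocorticoid response element (half-sites AGAACA and TGTTCT, 3 bases apart) and to the antioxidant response element (TGACNNNGC). The Mt1 window is chr8:94178839-94179088, the Mt2 window is chr8:94172368-94172617 and the Sgk1 window, 1 of 6 for that gene, is chr10:21993640-21993889, all on the plus strand.
Mt1: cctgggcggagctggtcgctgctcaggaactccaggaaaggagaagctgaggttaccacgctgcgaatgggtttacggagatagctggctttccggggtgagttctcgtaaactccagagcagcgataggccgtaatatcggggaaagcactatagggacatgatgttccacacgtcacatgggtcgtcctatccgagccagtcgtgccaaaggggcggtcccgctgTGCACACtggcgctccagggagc
Mt2: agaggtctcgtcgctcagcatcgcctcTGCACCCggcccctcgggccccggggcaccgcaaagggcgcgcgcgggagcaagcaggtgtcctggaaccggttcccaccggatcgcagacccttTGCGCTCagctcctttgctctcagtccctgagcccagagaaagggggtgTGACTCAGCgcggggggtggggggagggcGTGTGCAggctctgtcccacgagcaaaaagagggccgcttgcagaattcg
Sgk1: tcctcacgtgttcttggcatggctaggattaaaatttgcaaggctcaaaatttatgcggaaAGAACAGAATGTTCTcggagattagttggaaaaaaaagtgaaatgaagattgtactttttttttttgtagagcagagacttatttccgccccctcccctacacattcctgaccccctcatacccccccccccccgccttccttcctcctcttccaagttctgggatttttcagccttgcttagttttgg

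Mt2 held 3 matches to the metal response element before its start and Mt1 held 1, where 1.26% of windows held 3 or more and 21.4% held at least 1. The RefSeq windows run on to 50 bases after the start, where Mt1 had 2 more matches, Mt2 1 more and another Sgk1 window, not printed here, 1. Those of Mt1 lay 3 to 9 and 21 to 27 bases after its start. Counts before the start thus depend on where it is annotated and do not rank Mt1 against Mt2, and bases beyond the windows were not searched. Over the whole 300 bases, 4 or more matches as in Mt2 occurred in 0.518% of all 32817 windows, 3 or more as in Mt1 in 1.97%, and 1 or more as in that Sgk1 window in 25.7%. Mt2 also held the antioxidant response element, whose match contains the AP-1 motif TGACTCA and which occurred in 10.2% of the windows before the start. The full glucocorticoid response element of Sgk1 lay 189 to 175 bases before that start and was found in 3 of the 32817 windows. The other 5 Sgk1 windows, the 1 window of Fkbp5 and the 3 of Tsc22d3 held no match to any of these motifs before the start, which says only that these letters are not in those windows. These matches describe the reference sequence and do not show that a factor binds there.

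Mt1 was bright on all 6 arrays and its strains overlapped. The intensity, in the authors' linear units, was 23856.6, 19053.6 and 25717.2 on BPH arrays 1, 2 and 3, and 19504.8, 26858.4 and 25624.8 on BPL arrays 1, 2 and 3. In each strain 1 array lay low and the others high, so the spread within a strain covered the whole range. BPH arrays averaged 22880 ± 3438 and BPL arrays 24000 ± 3938 (SD, n = 3 each), a log2 difference (BPH minus BPL) of -0.07 (SE 0.17, 95% interval -0.44 to 0.31, limma adjusted p = 0.861). The sign turned to 0.11 within the arrays of fluidics station 1, which are BPH 3 as the only BPH array and all 3 BPL arrays. It turned to 0.06 without BPH 2 and 0.02 without BPL 2, so no direction can be given for Mt1.

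Mt2, the neighbouring gene and close copy of Mt1, also overlapped between the strains. Its intensity was 24375, 21277.9 and 25963.4 on BPH 1, 2 and 3, and 22294.8, 33768.8 and 25416 on BPL 1, 2 and 3. A single array, BPL 2, stood above the rest, while the other 5 spanned the same values in both strains. With it included, BPL arrays averaged 27160 ± 5932 against 23870 ± 2383 for BPH (SD, n = 3 each), a log2 difference of -0.17 (SE 0.17, 95% interval -0.55 to 0.21, limma adjusted p = 0.612). Without BPL 2 the log2 difference was 0.0 (adjusted p = 0.998). Mt1 and Mt2 are similar enough in sequence that their probes may detect each other's transcript, so the pair may not be independent measurements.

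Both metallothioneins had the same lowest array, BPH 2, the same next lowest, BPL 1, and the same highest, BPL 2. Likeness was measured as the root mean square difference between log2 profiles over the 6 arrays, each centred on its own mean. It was 0.121 for Mt1 against Mt2, which placed Mt2 at rank 41 among the 5555 tested genes by likeness to Mt1, and Mt1 at rank 62 by likeness to Mt2. The genes most like Mt1 were Bsdc1 (0.057), Fermt3 (0.069) and Gtf3c1 (0.069), the last a subunit of a transcription factor for RNA polymerase III. Those most like Mt2 were E4f1 (0.048), Ndufv3 (0.048), a subunit of respiratory complex I, and the choline transporter gene Slc44a1 (0.052). With 6 arrays many genes share a profile by rank alone, and the values are given as a description.

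**Figure D1:**
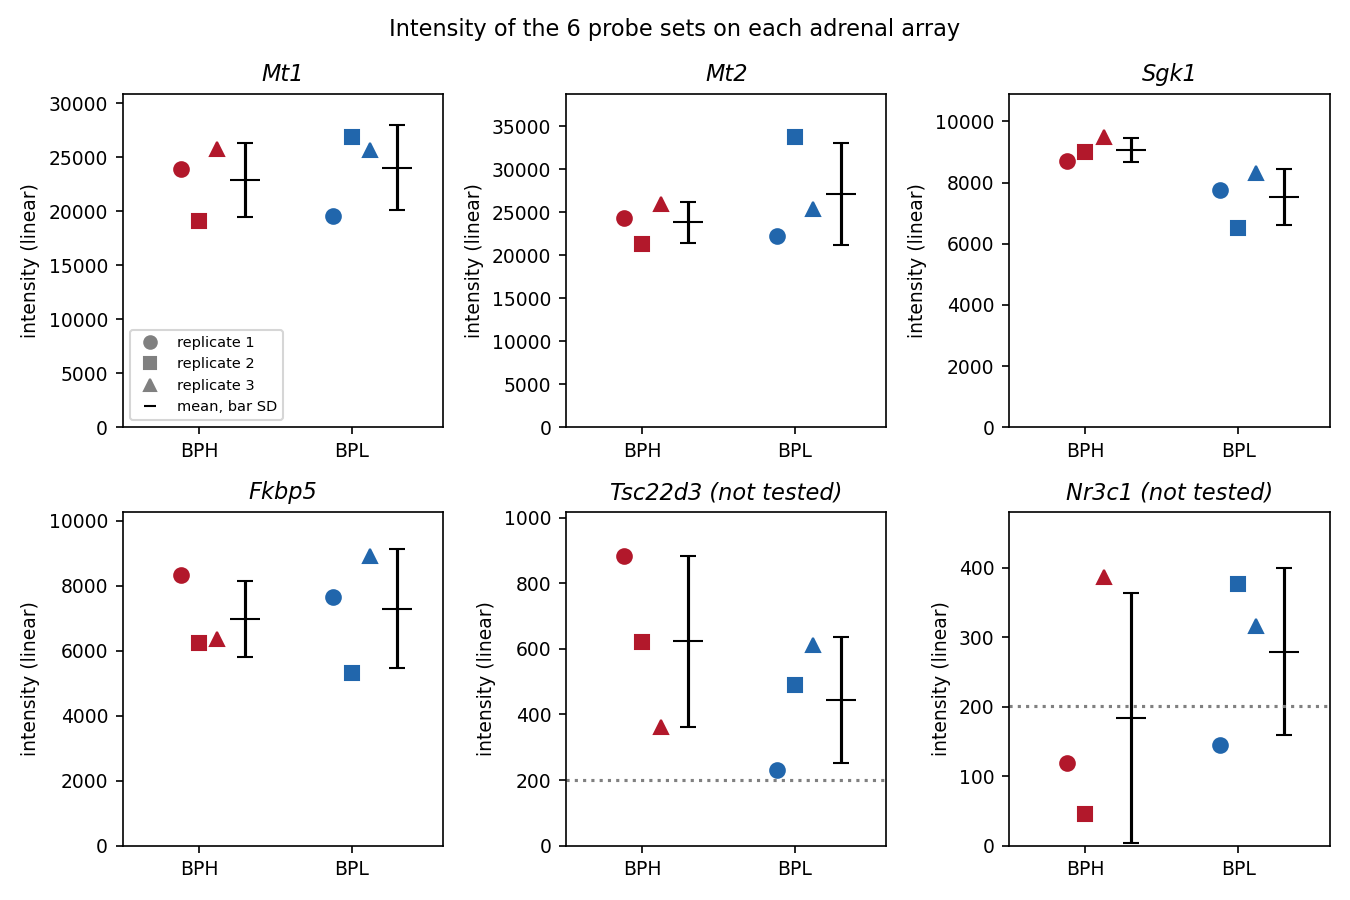
Intensity (linear, from 0) of the 6 probe sets on the 3 BPH arrays (red) and 3 BPL arrays (blue), with marker shape giving the replicate number and black bars the mean and SD; the dotted line in the lower middle and right panels is the floor of 201.3. The strains overlap for every gene but Sgk1, whose BPH arrays run from 8715.7 to 9490.7 and BPL arrays from 6522 to 8315.2.

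Sgk1 encodes a kinase, induced by glucocorticoids and mineralocorticoids, that raises sodium transport in epithelia by keeping channels at the cell surface. Its intensity was 8715.7, 9011.7 and 9490.7 on BPH 1, 2 and 3, and 7767.9, 6522 and 8315.2 on BPL 1, 2 and 3. All 3 BPH arrays lay above all 3 BPL arrays, which 14.9% of the tested probe sets also did. BPH arrays averaged 9073 ± 391.1 and BPL arrays 7535 ± 919 (SD, n = 3 each), a 1.21-fold BPH level relative to BPL. The log2 difference was 0.27 (SE 0.13, 95% interval -0.01 to 0.56), and it did not pass the threshold (limma unadjusted p = 0.0592, adjusted p = 0.281). An exact two-sided permutation test gave p = 0.1, the smallest that 3 arrays against 3 can give.

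Sgk1 was the steadiest of the 4 tested genes within a strain, with a pooled SD of 0.14 on the log2 scale, and 19.7% of tested probe sets had a smaller one. Its difference was larger than that of 59.2% of tested probe sets in absolute size. Leaving out 1 array at a time gave log2 differences from 0.17 without BPL 2 to 0.35 without BPL 3, with adjusted p from 0.166 to 0.501, and the direction did not change in these fits. Its level was lowest on BPL 2. The genes with the most similar profile were Fibp (0.027), Wbp1l (0.034) and Glg1 (0.034).

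Fkbp5 encodes FKBP51, a co-chaperone that glucocorticoids induce and that in turn lowers the receptor's affinity for hormone. Its intensity was 8317.5, 6237.6 and 6362 on BPH 1, 2 and 3, and 7641.5, 5302.9 and 8924 on BPL 1, 2 and 3. Both the highest array, BPL 3, and the lowest, BPL 2, belonged to BPL. BPH arrays averaged 6972 ± 1167 and BPL arrays 7289 ± 1836 (SD, n = 3 each), a log2 difference of -0.04 (SE 0.20, 95% interval -0.50 to 0.42, limma adjusted p = 0.925). The sign turned in 4 of the 6 fits that left out 1 array, reaching 0.03 when BPH 2 was dropped, 0.02 for BPH 3, 0.01 for BPL 1 and 0.12 for BPL 3, so no direction can be given. Dropping BPL 2 gave a log2 difference of -0.26, and dropping both arrays that carried skeletal muscle transcripts, BPH 1 and BPL 2, gave -0.39 (adjusted p = 0.255).

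The 6-array profile of Fkbp5 differed from that of the metallothioneins, at 0.341 from Mt1 and 0.41 from Mt2. It was high on BPL 3 and BPH 1 and low on BPL 2, where Mt1 and Mt2 were at their highest. Ap2m1 (0.055), a subunit of the clathrin adaptor, Tmem176b (0.068) and Pcolce (0.077), an enhancer of collagen processing, had the profiles most like it. Within a strain the SD of Fkbp5 was 0.32 on the log2 scale, and 73.3% of tested probe sets had a smaller one.

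Tsc22d3 encodes GILZ, a leucine zipper protein induced by glucocorticoids that carries part of their anti-inflammatory action. It was dim, with intensities of 884.5, 622.1 and 362.1 on BPH 1, 2 and 3, and 232.1, 488.5 and 611.3 on BPL 1, 2 and 3, and the strains overlapped. The averages were 622.9 ± 261.2 for BPH and 444 ± 193.5 for BPL (SD, n = 3 each). Tsc22d3 fell under the filter on low values (a mean log2 intensity equivalent to 668.1) and was not among the tested probe sets. In the fit without that filter its log2 difference was 0.51 (SE 0.52, 95% interval -0.85 to 1.87, limma adjusted p = 0.708), an interval wide enough to hold a 3.64-fold higher BPH level. The value was -0.18 within station 1, where BPH 3 is the only BPH array. Of all 12422 probe sets in the fit without the filter 0.419% were called.

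Nr3c1 was dimmer still, with 119.5, 45.6 and 386.7 on BPH 1, 2 and 3, and 145, 376.5 and 316.5 on BPL 1, 2 and 3. On 2 BPH arrays and 1 BPL array it lay under the floor of 201.3, below which values were not distinguished. The averages were 183.9 ± 179.4 for BPH and 279.3 ± 120.1 for BPL (SD, n = 3 each), and the strains overlapped. Without the filter the log2 difference was -0.20 (SE 0.38, 95% interval -1.18 to 0.77, limma adjusted p = 0.889). It was -0.68 with the floor at the 10th percentile and -0.70 with an offset in place of the floor. Among the station 1 arrays, where BPH 3 is the only BPH array, it was 0.40, and it was 0.14 once the 2 muscle-bearing arrays were dropped. This single probe set gives no usable measure of the receptor's transcript at this signal, and does not show that the transcript is absent.

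**Figure D2:**
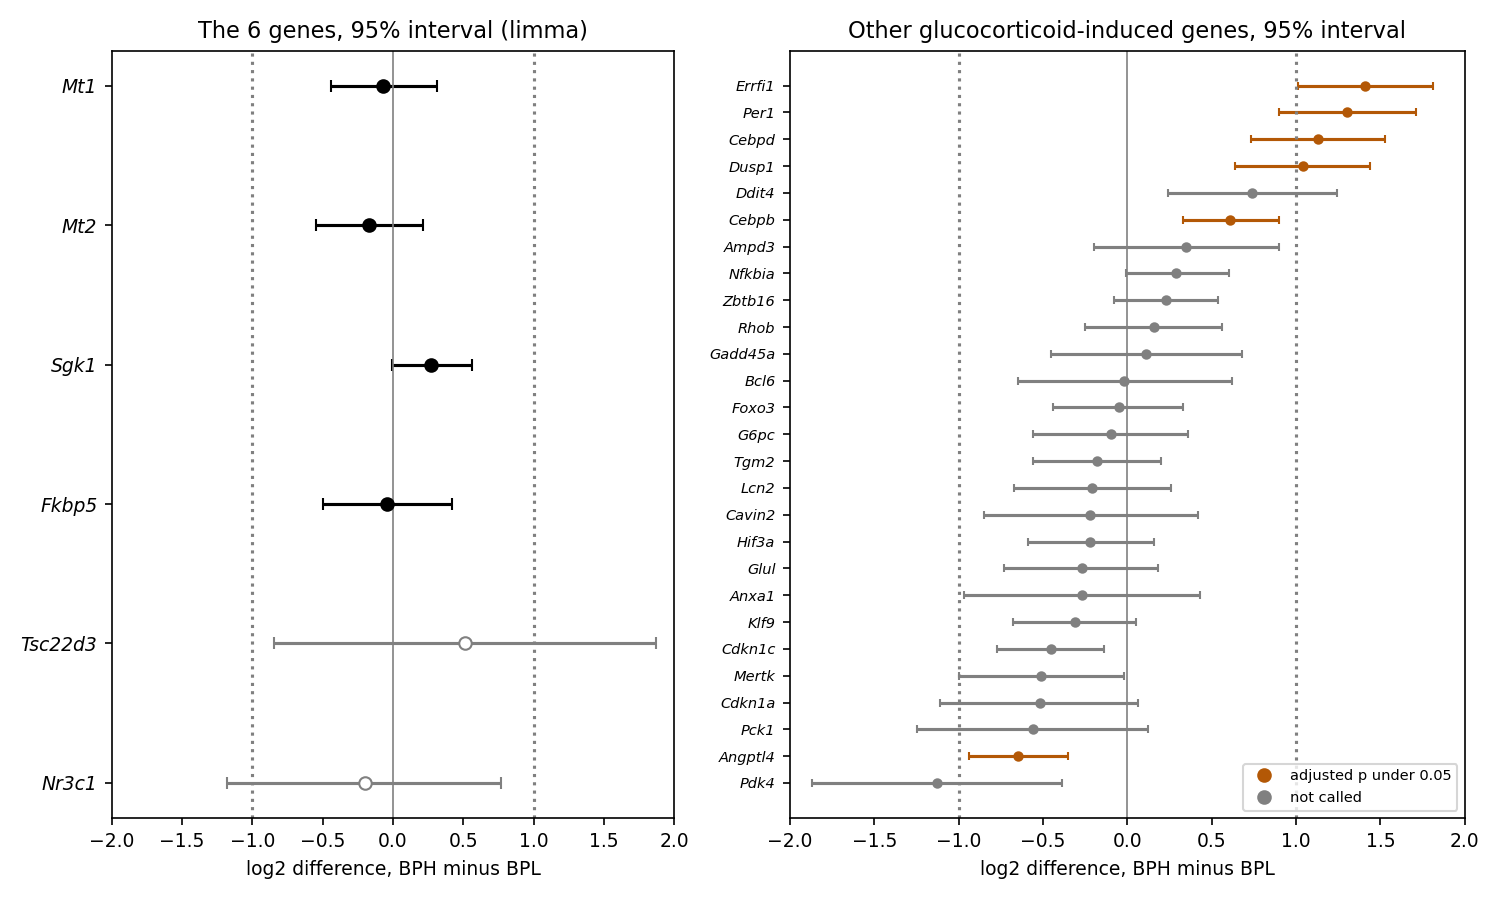
Log2 difference, BPH minus BPL, with 95% intervals from limma for the 6 genes (left; open grey points are the 2 probe sets under the filter, from the fit without it) and for 27 other glucocorticoid-induced genes (right; orange points have an adjusted p under 0.05). Dotted lines mark a log2 difference of 1 in either direction; the intervals of Mt1, Mt2, Sgk1 and Fkbp5 lie inside them. The points of Errfi1 (1.41), Per1 (1.30), Cebpd (1.13), Dusp1 (1.04) and, on the other side, Pdk4 (-1.13, not called) lie beyond. Of these 5 only the interval of Errfi1, drawn for the brighter of its tested probe sets, does not cross the line.

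Other genes that glucocorticoids are known to induce were counted in a list of 38, of which 27 were tested. In BPH 5 rose and 1 fell past the threshold, with a median log2 difference of -0.10, beside 1.53% called higher and 0.9% called lower over all 5555 genes and a median of 0.04. The risen genes were Errfi1 (1.41, SE 0.18, adjusted p = 0.00537), an inhibitor of the EGF receptor, the clock gene Per1 (1.30, adjusted p = 0.00839), the transcription factor genes Cebpd (1.13, adjusted p = 0.015) and Cebpb (0.61, adjusted p = 0.0422), and Dusp1 (1.04, adjusted p = 0.0212), a phosphatase that ends MAP kinase signals. These values are for the brightest probe set, and the dimmer tested one of Errfi1 gave 0.82 (limma adjusted p = 0.0323). Each of these 5 is also induced by growth factor, cyclic AMP or stress signals without glucocorticoids. Angptl4, a lipase inhibitor that is abundant in fat, fell by 0.65 on the log2 scale (adjusted p = 0.0388) by its brightest probe set, while its other two tested probe sets gave -0.53 (adjusted p = 0.19) and -0.66 (adjusted p = 0.404). The other 21 tested members did not pass, among them Pdk4 (-1.13, adjusted p = 0.106), Klf9 (-0.31, adjusted p = 0.328), Nfkbia (0.29, adjusted p = 0.271) and Zbtb16 (0.23, adjusted p = 0.386).

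Those calls held to differing degrees when an array was left out, while the log2 differences kept their direction. They ran from 1.30 to 1.57 for Errfi1, 1.17 to 1.48 for Per1, 0.99 to 1.25 for Cebpd and 0.88 to 1.17 for Dusp1. For Cebpb they ran from 0.56 to 0.71 and for Angptl4 from -0.72 to -0.60. The count called on the whole array, 184, ran from 42 to 361 in the same fits, so a lost call need not mean a smaller difference. With 1 array left out, 6 of 6 fits called Errfi1, with adjusted p up to 0.0414, while 3 of 6 called Dusp1 and 1 of 6 each called Cebpb and Angptl4. Per1 lost its call without BPH 2 or BPH 3, and Cebpd without BPH 2, BPH 3 or BPL 1. Dropping BPH 1, BPH 2, BPH 3 or BPL 1 left 3, 2, 1 and 2 calls in the list. Dusp1 (0.99, adjusted p = 0.0794) and Angptl4 (-0.59, adjusted p = 0.156) were not called once both muscle-bearing arrays were dropped, which left 4 calls. BPH 1 and BPH 2 were run on station 2 and the other 4 arrays on station 1. A fit within station 1 and a fit with the station as a block both compare BPH 3 alone with the BPL arrays. In the fit as reported 10 of the 27 tested genes of the list had an unadjusted p under 0.05 in limma, beside 19.3% of tested probe sets. In the fit without the filter on low values limma called 0 of the list, beside 0.419% of all 12422 probe sets. There 11 of the 32 list genes on the array had an unadjusted p under 0.05, beside 1690 of those 12422. Within station 1 the log2 differences were 1.58 for Errfi1, 1.57 for Per1, 1.41 for Cebpd, 1.12 for Dusp1, 0.71 for Cebpb and -0.52 for Angptl4. With 1 BPH array these are sizes only. Whether these genes differ from Mt1, Mt2, Sgk1 and Fkbp5 was not tested.

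Genes that hold, activate or assist the receptor numbered 18 tested of 27 listed. In limma 0 were called, beside 1.53% called higher and 0.9% called lower over all genes, and the median was 0.05 beside 0.04. An unadjusted p under 0.05 was reached by 4 of the 18, beside 19.3% of all tested probe sets, so that count says nothing about the list. The 4 were Crebbp (0.64, adjusted p = 0.0775), a co-activator, the chaperone genes Hsp90aa1 (0.41, adjusted p = 0.113) and Hspa8 (0.34, adjusted p = 0.252), and Ppid (0.45, adjusted p = 0.155), a co-chaperone that competes with FKBP51. Fkbp4, whose product FKBP52 opposes FKBP51 on the receptor, averaged 12060 ± 565.4 for BPH against 12710 ± 1918 for BPL (SD, n = 3 each), a log2 difference of -0.07 (adjusted p = 0.825). Hsd11b1, which regenerates active glucocorticoid inside cells, averaged 2996 ± 241.8 against 3005 ± 463.9 (SD, n = 3 each), with a difference on the log2 scale of 0.00 (95% interval -0.34 to 0.35, adjusted p = 0.991).

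Metal handling and oxidative stress genes gave 1 call among 21 tested of 30 listed, beside 1.53% called higher and 0.9% called lower over all genes, with a median log2 difference of 0.12 beside 0.04. The call was on 1 of the pair of tested probe sets for Srxn1, which repairs oxidised peroxiredoxins. The brighter one differed by 1.43 on the log2 scale (SE 0.30, limma adjusted p = 0.0477), averaging 5945 ± 2328 in BPH against 2111 ± 438.1 for BPL (SD, n = 3 each). The other gave -0.18 (adjusted p = 0.62), so the probe sets disagree and no direction is given for Srxn1. The call was lost without BPH 2, BPH 3, BPL 1 or BPL 2, with limma adjusted p up to 0.179. It was also lost with the station as a block (0.161), with no filter (0.245) and with no intensity trend (0.0997). Within station 1, with BPH 3 as the only BPH array, the log2 difference was 1.91. Nfe2l2, the transcription factor NRF2 that acts through antioxidant response elements (0.42, adjusted p = 0.0884), the copper ferroxidase gene Cp (0.51, adjusted p = 0.105) and Gclm of glutathione synthesis (0.36, adjusted p = 0.217) were not called. The zinc sensor Mtf1 (0.12, 95% interval -0.64 to 0.89) and the brain-type metallothionein Mt3 (-0.21, 95% interval -0.75 to 0.34) were tested and not called. The zinc exporter gene Slc30a1, another MTF-1 target, was under the filter (464.2 ± 116.6 in BPH against 414.5 ± 177.7 for BPL, SD, n = 3 each), and so was the epithelial metallothionein Mt4.

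Around Sgk1, 12 of 22 listed genes of the mineralocorticoid axis were tested and 1 was called, beside 1.53% higher and 0.9% lower over all genes. Ndrg1, whose protein is phosphorylated by SGK1, rose by 0.61 (SE 0.13, limma adjusted p = 0.0467), averaging 7342 ± 778.4 in BPH against 4793 ± 367.1 for BPL (SD, n = 3 each). It lost the call in each of the 6 fits that left out 1 array, with adjusted p from 0.0606 to 0.187. The call was also lost with the station as a block (0.262), with no filter (0.122), with no intensity trend (0.0997) and once the muscle-bearing arrays were dropped (0.171). Its log2 difference was 0.54 to 0.70 in those 6 fits and 0.75 within station 1, where BPH 3 is the only BPH array. Its other tested probe set gave 0.46 (adjusted p = 0.191). Nedd4l, the ubiquitin ligase that SGK1 inhibits (-0.59, adjusted p = 0.107), Slc9a3r1 (0.70, adjusted p = 0.144) and Ndrg2 (-0.32, adjusted p = 0.246) were not called. The list median was 0.06.

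Cytokines can act on metallothionein genes through STAT3. The list of cytokine and acute phase genes gave 3 calls, 2 higher and 1 lower, among 13 tested of 24 listed. This stands beside 1.53% called higher and 0.9% lower over all genes, and the list median was -0.05. Cebpd, listed here too, and the kinase gene Pim1 (0.66, adjusted p = 0.0467) rose, and the acute phase gene Orm1 had a log2 difference of -1.69 (adjusted p = 0.0306). Pim1 was called in 1 of the 6 fits that left out 1 array, without BPL 2, and Orm1 in 2, without BPL 2 or BPL 3. With the station as a block and with no filter 0 of the list were called by limma, and with no intensity trend 1 was. With no filter 4 of the 22 list genes on the array had an unadjusted p under 0.05 in limma, beside 1690 of 12422 probe sets. Within station 1, with BPH 3 as the only BPH array, the log2 differences were 0.75 for Pim1 and -1.91 for Orm1. The dimmer Pim1 probe set gave 0.62 (adjusted p = 0.211). The cytokine receptor genes Il6ra (-0.86, adjusted p = 0.166) and Il6st (0.42, adjusted p = 0.18) and the factor Stat3 (-0.24, adjusted p = 0.544) were not called. Il6, Il1b, Tnf and Socs3 were under the filter.

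**Figure D3:**
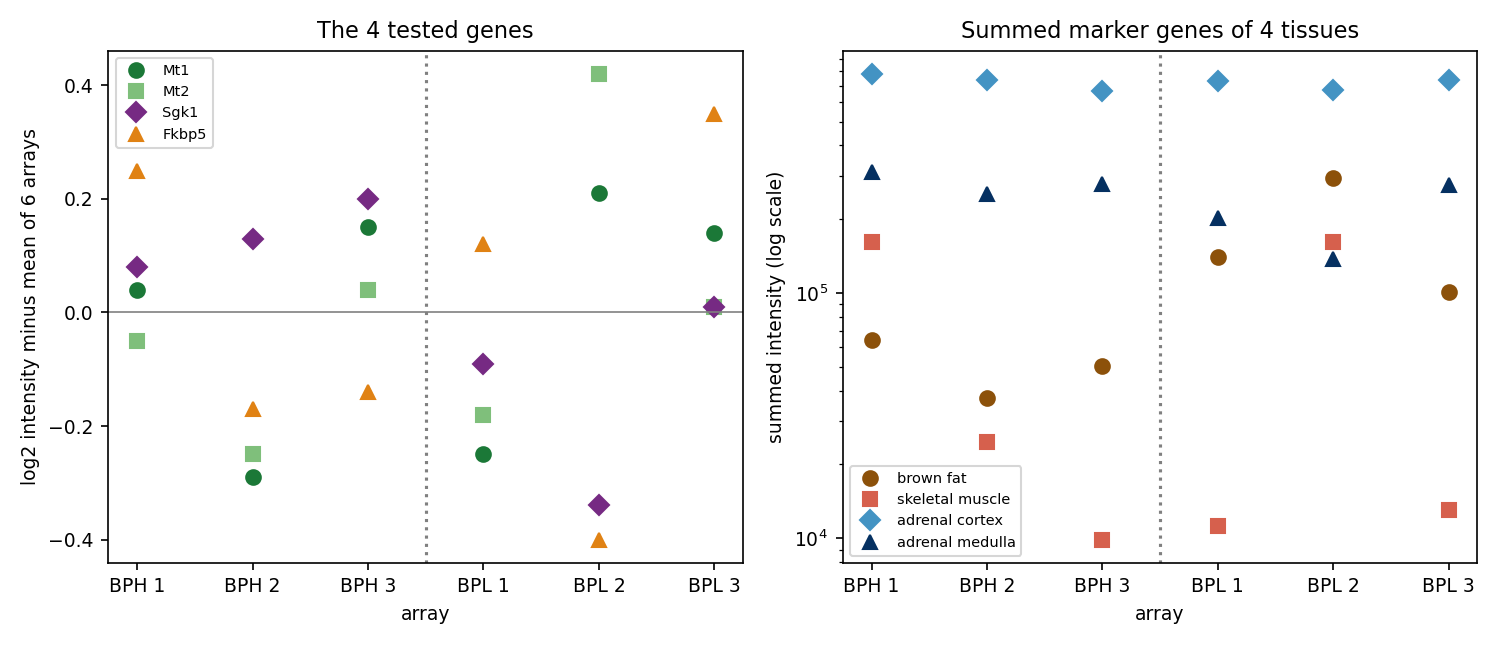
Left, log2 intensity of Mt1, Mt2, Sgk1 and Fkbp5 minus the mean of the 6 arrays; right, summed intensity (log axis) of marker genes of 4 tissues on the same arrays, with the dotted line between BPH and BPL. On BPL 2, where Mt2 is 0.42 above and Sgk1 and Fkbp5 are 0.34 and 0.40 below their means (-0.34 and -0.40), the brown fat markers are highest and the medulla markers lowest.

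All 9 cortex genes on the array were tested, and they differed in brightness. Star, which brings cholesterol into mitochondria, lay between 86781.7 and 100621.9 on all arrays. The dimmest, Nr0b1, averaged 1512 ± 133.2 in BPH against 1030 ± 320.9 for BPL (SD, n = 3 each). Its log2 difference was 0.60 (limma adjusted p = 0.249). Markers of adjoining tissue differed between arrays, and on BPL 2 they were high where Mt2 was at its highest and Sgk1 and Fkbp5 at their lowest. The match did not extend to every array: on BPL 1, second highest for brown fat, Mt1 and Mt2 were next to lowest (-0.25 and -0.18 from their means), and on BPH 1, with about as much muscle signal as BPL 2, Fkbp5 was 0.25 above its mean. The summed brown fat markers (7 of 8 on the array, 5 tested, 1 called lower in BPH) ran from 37232.7 to 64584.9 in BPH and from 101098.3 to 293767.9 in BPL, highest on BPL 2. Skeletal muscle markers (10 of 10 on the array, 0 called, 0 at an unadjusted p under 0.05 in limma) summed to 161320.1 on BPH 1 and 161827.1 on BPL 2, and to between 9881.1 and 24790.6 on the others. Medulla markers (9 of 12 on the array, 8 tested, 1 called higher) summed to between 252962.0 and 312334.3 in BPH. On BPL 1, 2 and 3 they summed to 202050.6, 137864.1 and 276268.9. By the brightest probe set all 8 tested were higher in BPH, with a median log2 difference of 0.69. An unadjusted p under 0.05 in limma was reached by 5, beside 19.3% of all tested probe sets. The dimmer tested probe set gave -0.05 for Chga (limma adjusted p = 0.919), 0.65 for Penk (0.377) and 1.19 for Pnmt (0.077). Over all genes 1.53% were called higher and 0.9% lower. No brown fat or muscle marker was under the floor on all 6 arrays. The part of these tissues in the metallothionein, Sgk1 and Fkbp5 values was not tested. In whole glands, fewer cells of a type and less RNA per cell cannot be told apart. Without BPL 2 the log2 differences were 0.02 for Mt1, 0.0 for Mt2, 0.17 for Sgk1 and -0.26 for Fkbp5.

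**Figure D4:**
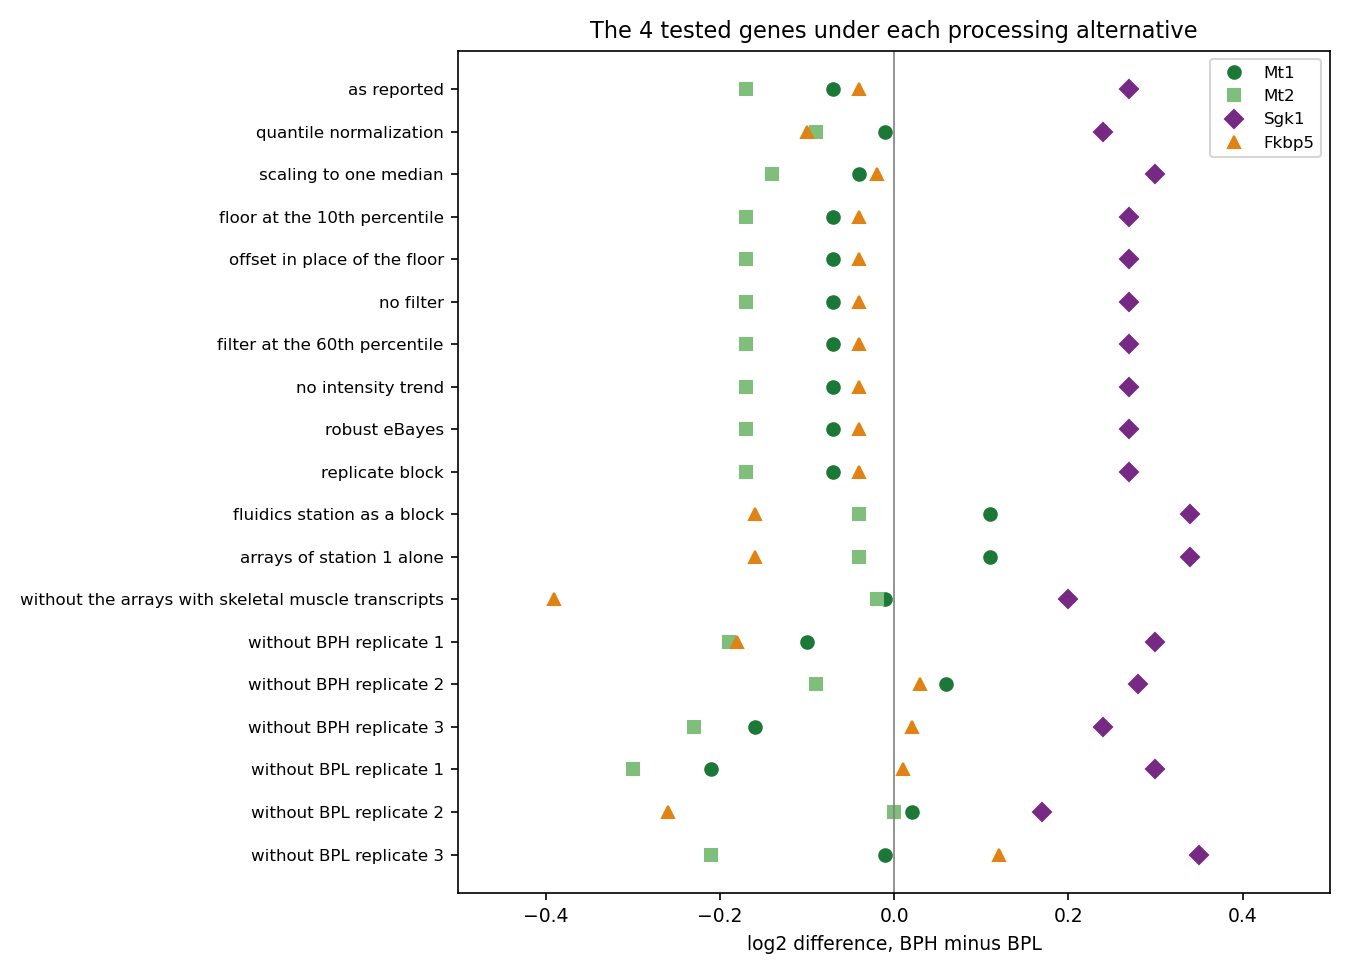
Log2 difference, BPH minus BPL, of Mt1 (circles), Mt2 (squares), Sgk1 (diamonds) and Fkbp5 (triangles) as reported and under 18 processing alternatives, 1 per line. Sgk1 stays between 0.17 and 0.35, Mt2 between -0.30 and 0.0, while Mt1 (-0.21 to 0.11) and Fkbp5 (-0.39 to 0.12) fall on both sides of 0.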

How the data were processed

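RNA of adrenal glands from BPH and BPL mice was measured on MG_U74Av2 arrays, 3 per strain. The authors deposited 1 linear intensity for each probe set on each array. The program behind these values was not given in the sources used here. Across arrays, 2% trimmed means ran from 2501.3 to 2501.5, and the values were used without rescaling. The 20th percentile of the whole table, 201.3, served as a floor before log2 was taken, which understates changes of dim genes. A probe set was tested if its mean log2 reached that of the table's 40th percentile, 668.1, and if it was not 1 of the 66 controls. Strains were compared with limma 3.58.1 (R 4.3.3) using lmFit and a trended eBayes, two-sided, and p-values were adjusted by Benjamini-Hochberg over the 7293 tested probe sets. Means and SDs use the deposited values, and the number of arrays limits their precision.

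Gene names are those of the platform annotation, updated by gene number for 10839 of 10855 probe sets with 1 gene to RefSeq symbols of GRCm38.p6. For list counts a gene's brightest tested probe set stood for the gene. Named genes are the 6 members, every called gene of each list, otherwise up to 4 with the smallest p, and the 3 most similar profiles per tested member. Uncalled genes named from lists that hold a call, such as Pdk4, Klf9, Nfe2l2, Mtf1, Nedd4l and Il6ra, and also Fkbp4 and Hsd11b1, lie outside that rule and were chosen after their values were seen. The members and lists were chosen with earlier results of these data known. RefSeq promoter windows were found for 5 of the 6 genes. Alternatives were other scalings, floors, filters, variance models, blocks, thresholds and arrays left out. Dropping the 2 arrays whose summed skeletal muscle markers exceeded 3 times the median array was chosen after seeing the data.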

Additional observations from a re-analysis of the deposited data

How the results depend on the processing

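No member was called under any of the 20 alternatives, in limma. The stricter p threshold and the added fold threshold were applied to a fit that called 0 members, so their outcome was fixed in advance. At an unadjusted p under 0.05 in limma there was 1 member with scaling to one median, with no filter, without the 2 muscle arrays and without BPL 3, and 0 elsewhere. It was Fkbp5, lower in BPH, without the muscle arrays, and Sgk1, higher in BPH, in the others. Over the array 1395 of 7293 tested probe sets reached that level with scaling, 1089 without the muscle arrays and 1672 without BPL 3. With no filter 1690 of 12422 did. Of 104 member values 13 reversed and 91 were counted as keeping their direction, among them Mt2 at 0.0 without BPL 2. The filters, the variance models and the replicate block leave a member's log2 difference as it was. Their values could not reverse, so the count of 91 is no measure of stability. With the station as a block the reversals were Mt1 (0.11), Tsc22d3 (-0.18) and Nr3c1 (0.42), and within station 1 they were Mt1 (0.11), Tsc22d3 (-0.18) and Nr3c1 (0.40). Station 2 holds no BPL array, so both fits set BPH 3 alone against the BPL arrays and are not separate checks. Nr3c1 reversed without the muscle arrays too (0.14). With 1 array left out Mt1 ran from -0.21 to 0.06 and Fkbp5 from -0.26 to 0.12. The cause was not tested. The count of probe sets called on the array, 184, was 52 with no filter, 83 without the intensity trend, 18 with the station block and 48 at an adjusted p under 0.01. It ran from 42 to 361 with 1 array left out. The count in the list of other glucocorticoid-induced genes, 6, was 0 with no filter and with the station block. With no filter 11 of its 32 genes on the array had an unadjusted p under 0.05 in limma, beside 1690 of 12422 probe sets. The list count was 3 without the trend and 2 at an adjusted p under 0.01. With 1 array left out it ran from 1 to 7. The cause was not tested. Same-numbered arrays correlated at -0.219, -0.084 and 0.012 in their deviations from the strain means, and other pairs at -0.085 to 0.156. The labels do not say whether the numbers pair the arrays. These correlations cannot decide it, since the deviations within a strain sum to 0. With the replicate block 124 probe sets were called, 4 in that list and 0 members, and the log2 difference was 0.27 for Sgk1 (adjusted p = 0.396). That block ended the calls of Angptl4, Cebpb, Ndrg1 and Pim1. The smallest difference called on the array was 0.54 in absolute log2 value, which is no limit of detection for a given gene. Tsc22d3 and Nr3c1 are limited by signal near the floor.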
